A study of Drosophila melanogaster with 18 samples.

Results

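The cytochrome P450 genes were followed in heads of young female flies lacking the microRNA miR-210 and in heads of control flies. Members were all genes of the count table whose symbol starts with Cyp followed by a digit, and 79 of 15406 genes met this rule. One of these, Cyp1, is annotated as cyclophilin 1, a peptidyl-prolyl isomerase and not a P450, which left 78 P450 genes. Of these, 66 passed the count filter and were tested together with all other expressed genes, 9470 in all, and 12 were too low to test. P450 genes that go by other symbols, such as the ecdysone synthesis genes phm, dib, sad, shd, spo and spok, do not meet the rule and are described only as partners of the members. A further 2442 rows had no symbol and could not meet the rule. Cyp4g1, on the hydrocarbon and oenocyte lists used below, was not found in the count table, and Cyp6a2 was not among the members. Rankings and sums below cover only the 78 members.

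The miR-210Δ mutants (labelled mir210KO) carry a CRISPR/Cas9 deletion made with a pair of guide RNAs flanking the miR-210 locus, backcrossed into the wDah (white Dahomey) background, which carries the bacterium Wolbachia. Control flies were wDah wild type. Both genotypes were females kept at constant temperature in a light-dark cycle, and heads were taken 1 h after eclosion, with 3 poly(A)-selected libraries per genotype. The paper names once-mated females for its experiments in general, but does not state mating for these 1-h-old flies. The labels do not say whether the libraries of a genotype came from separate cohorts, how many heads were pooled or whether the mutants descend from 1 founder, so p-values measure only the spread between these libraries. The deletion affects every tissue of the fly, and a whole head holds eye, brain, fat body, cuticle, muscle and other tissue, so that fewer cells of a type and less RNA per cell cannot be told apart.

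Libraries held 17992976 to 20486283 counts in miR-210Δ mutants and 18931638 to 21315973 counts in control flies. The miR-210 hairpin had 0 counts in all 6 libraries, in which a processed microRNA is not captured, and therefore does not check the labels. All 15 photoreceptor markers examined were lower in miR-210Δ mutants, with a summed level of 18917 to 19410 CPM (counts with every library scaled to the same total) in mutant libraries against 31415 to 34544 CPM in control libraries. One control library, replicate 3, was unlike the others. A chi-square test of its counts against control replicates 1 and 2 gave 21.6 and 18.8 per degree of freedom, against 3.86 between those replicates and 2.44 to 4.12 among the mutants, and its muscle markers summed to 38082 CPM against 26145 to 28213 CPM in the other controls. The part of either difference in the P450 results was not tested, but P450 calls that changed without control replicate 3 are named as such.

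P450 enzymes are haem-containing monooxygenases that insert an oxygen atom into lipophilic molecules. Most insect P450s sit in the membrane of the endoplasmic reticulum and receive electrons from cytochrome P450 reductase, and a smaller mitochondrial clan receives them from a ferredoxin. Insects use them in turn to make and break down steroid and juvenoid hormones, to form the hydrocarbons of the cuticle, to metabolise fatty acids and odorants and to detoxify plant compounds and insecticides. The large CYP3 and CYP4 clans hold most genes of the last kind, which often lie side by side as tandem duplicates.

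The defining feature of the family is a cysteine that holds the haem iron, inside the signature phenylalanine, any residue, any residue, glycine, any residue, arginine, any residue, cysteine, any residue, glycine. Of the 75 P450 genes whose coding sequence reads in frame in the Release 6 (dm6) annotation, 61 (81.3%) held this signature, against 9 of 13867 other coding genes (0.0649%), among them the P450s spo, spok, sad and shd. Cyp1, at 227 residues, held none, while the P450 genes encoded 483 to 589 residues. The 30 coding bases of the signature are shown here for Cyp4d14, the member with the largest difference between genotypes, and for its neighbours on the X chromosome, with the cysteine codon in capitals. The site of Cyp4d14 lies at chrX:2173653-2173682 on the minus strand, in a coding exon, with the cysteine as residue 457. The sites of Cyp4d1, Cyp4d2 and Cyp4ae1 lie at chrX:2159380-2159409, chrX:2178486-2178515 and chrX:2180572-2180601.
Cyp4d14: ttctcagcgggtccgagaaacTGCatcggc
Cyp4d1: ttctcggccggacctcgcaacTGCattggc
Cyp4d2: ttctccgctggaccaagaaacTGTatcggc
Cyp4ae1: ttctccgctgggccgaggaacTGCattggt
Within these 30 bases Cyp4d14 differed from Cyp4d2 at 5, from Cyp4ae1 at 6 and from Cyp4d1 at 7. Over the coding sequence the nearest member to Cyp4d14 was Cyp4d2, at 63.3% identity, and no stretch of 150 bases, the read length, was shared with another member. The sites of 4 other members with a difference between genotypes show how far the signature varies between clans: Cyp4ac1 (CYP4 clan, chr2L:5265605-5265634), Cyp305a1 (CYP2 clan, chr3L:19810711-19810740), Cyp6d5 (CYP3 clan, chr3R:14031097-14031264, across an intron) and Cyp28d1 (CYP3 clan, chr2L:5212123-5212214, across an intron).
Cyp4ac1: tttagtgcaggccagaggaatTGCattggt
Cyp305a1: ttcggcatgggcagacgccgtTGTctgggc
Cyp6d5: ttcggcgagggacccaggatgTGTatcggc
Cyp28d1: tttggcgatggaccacgtattTGCcccggt

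Across the family, 6 members were higher and 3 were lower in miR-210Δ mutants at an adjusted p under 0.05 (edgeR quasi-likelihood test, Benjamini-Hochberg adjustment over all 9470 genes). These 9 are 13.6% of the 66 tested members, and 10.1% of all genes tested were called. By direction, 3.97% of all genes were called higher and 6.12% lower. At an unadjusted p under 0.05 there were 18 members (27.3%, against 23.2% of all genes), and the 3 mutant and 3 control libraries did not overlap for 20 members (30.3%, against 28.3% of all genes). Of these 20, the mutants were above control in 12 and below in 8. The median of the family was close to that of all genes. Its median log2 fold change was 0.0031, with 33 members positive and 33 negative, against a median of 0.0012 over all genes. The median size of the change without regard to sign was 0.132 on the log2 scale in the family and 0.0899 over all genes, and 1 member, Cyp4d14, changed by more than 1 on the log2 scale. All but 2 tested members passed the count filter in both genotypes. Cyp4d14 passed only through the mutants, where it was high, and without it 5 members of 65 were higher and 3 lower. The other exception, Cyp308a1, reached the filter in neither genotype alone.

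The calls depended on which libraries entered. Without mutant replicate 1 or mutant replicate 2, 3 members were higher and 1 was lower, and without mutant replicate 3, 1 was lower. Without control replicate 3, 5 were lower, Cyp12c1 and Cyp4d8 being added. Every called member kept its sign under each of the 14 alternative settings.

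**Figure D1:**
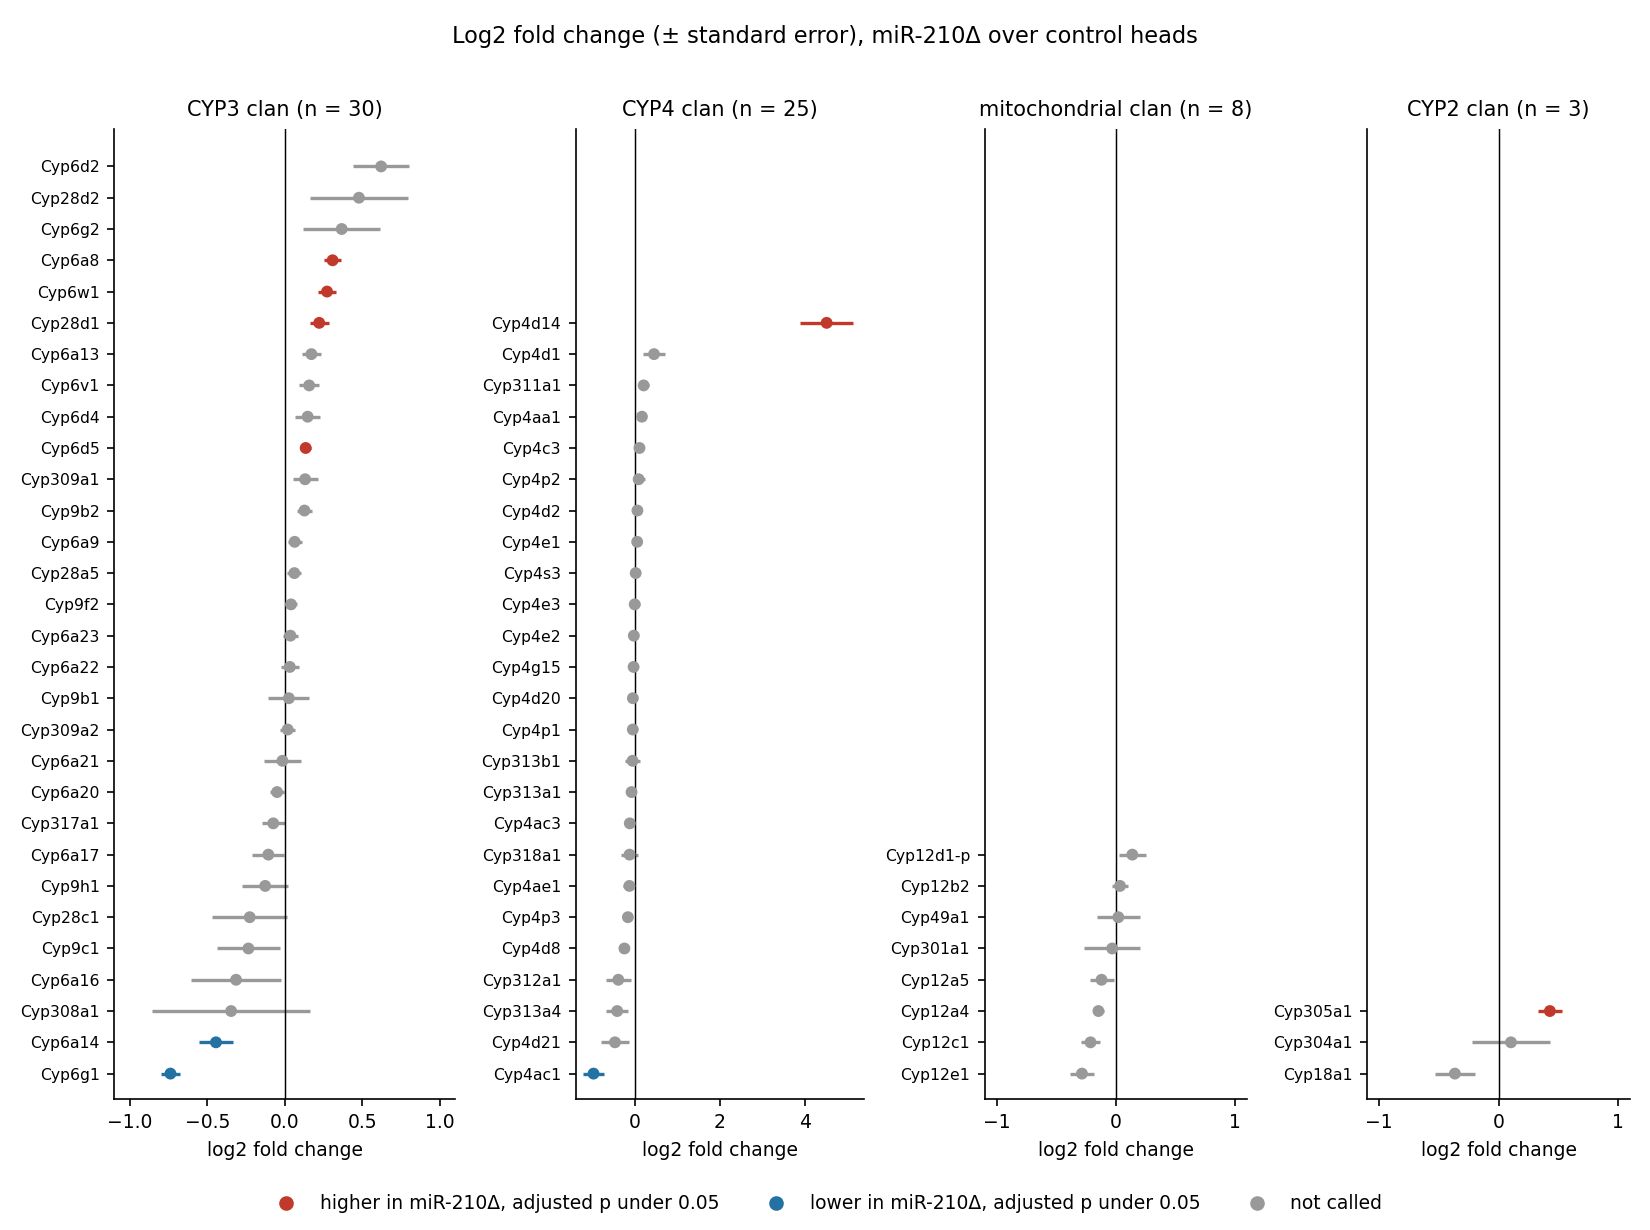
Log2 fold change of each tested P450 gene, miR-210Δ mutants over control heads, by clan. Points are edgeR estimates from 3 libraries per genotype and bars are ± 1 standard error. The CYP4 panel has a wider axis, since Cyp4d14 lies at 4.52, and the other called members lie between -0.98 and 0.43.

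By clan, the CYP3 clan had 4 of 30 tested members higher and 2 lower (20.0% called), with a median log2 fold change of 0.04. The CYP4 clan had 1 of 25 higher and 1 lower (8.0% called, median -0.05), and the CYP2 clan 1 of 3 higher (33.3%). None of the 8 tested members of the mitochondrial clan passed the threshold (median -0.08). The Cyp6 family, the largest of the CYP3 clan, supplied 5 of the 9 called members, 3 of its 17 tested members being higher and 2 lower (29.4% called). No member of the Cyp9 family (5 tested) was called. Over all genes tested 10.1% were called, and no clan or family was tested against that share.

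Cyp4d14 gave the largest difference. Its gene lies at chrX:2173415-2175315 on the minus strand. It had 96, 140 and 29 raw counts in miR-210Δ libraries, against 3, 3 and 5 raw counts in control libraries. Scaled to a common library of 19412968 counts, these are 89.0, 141 and 30.8 normalised counts in mutants and 3.10, 2.79 and 5.27 in controls. Every mutant library was above every control library, and mutant replicate 3 was well below the other mutants, which gave the largest coefficient of variation of any tested member in that genotype (63.2%, against a median of 7.31%). The log2 fold change was 4.52 (SE 0.632, edgeR adjusted p = 8.25e-04). From the summed counts, 265 against 11, the ratio was 23.9, with an exact 95% interval of 13.2 to 48.5, which covers counting error only and not the spread between libraries. The call held in all 14 alternative settings, with adjusted p-values of 4.7e-07 to 0.0182 and log2 fold changes of 3.99 to 4.91. These settings reuse the same libraries and are not independent support. Cyp4d14 was also picked out with earlier results of these data known, and it passed the count filter only through the mutants, where it was high.

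None of the P450 genes beside Cyp4d14 was called. Cyp4d1 had 35, 58 and 32 counts in miR-210Δ mutants against 32, 31 and 28 in controls (log2 fold change 0.45, adjusted p = 0.366). Cyp4d2 had 599, 551 and 470 counts in mutants against 475, 516 and 551 in controls (0.06, adjusted p = 0.737). Cyp4ae1 had 110, 89 and 94 counts in mutants against 119, 111 and 89 in controls (-0.13, adjusted p = 0.631). The genotypes overlapped for all 3 of these genes. On the opposite strand Cyp4d14 overlaps ND-B14.5A, a subunit of mitochondrial complex I, and the antisense RNA asRNA:CR45479 (FBgn0267035). ND-B14.5A had 1038, 1031 and 958 counts in mutants against 964, 1027 and 1176 in controls (-0.08, adjusted p = 0.648), and the antisense RNA had 90, 81 and 95 against 78, 79 and 72 (0.21, adjusted p = 0.447). Raw counts of the antisense RNA did not overlap between genotypes, though it was not called. It lies over 1629 of the 1694 exon bases of Cyp4d14. Libraries were stranded, and whether counting made use of the strand is not known, so that reads from these overlapping genes may not be fully separated.

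**Figure D2:**
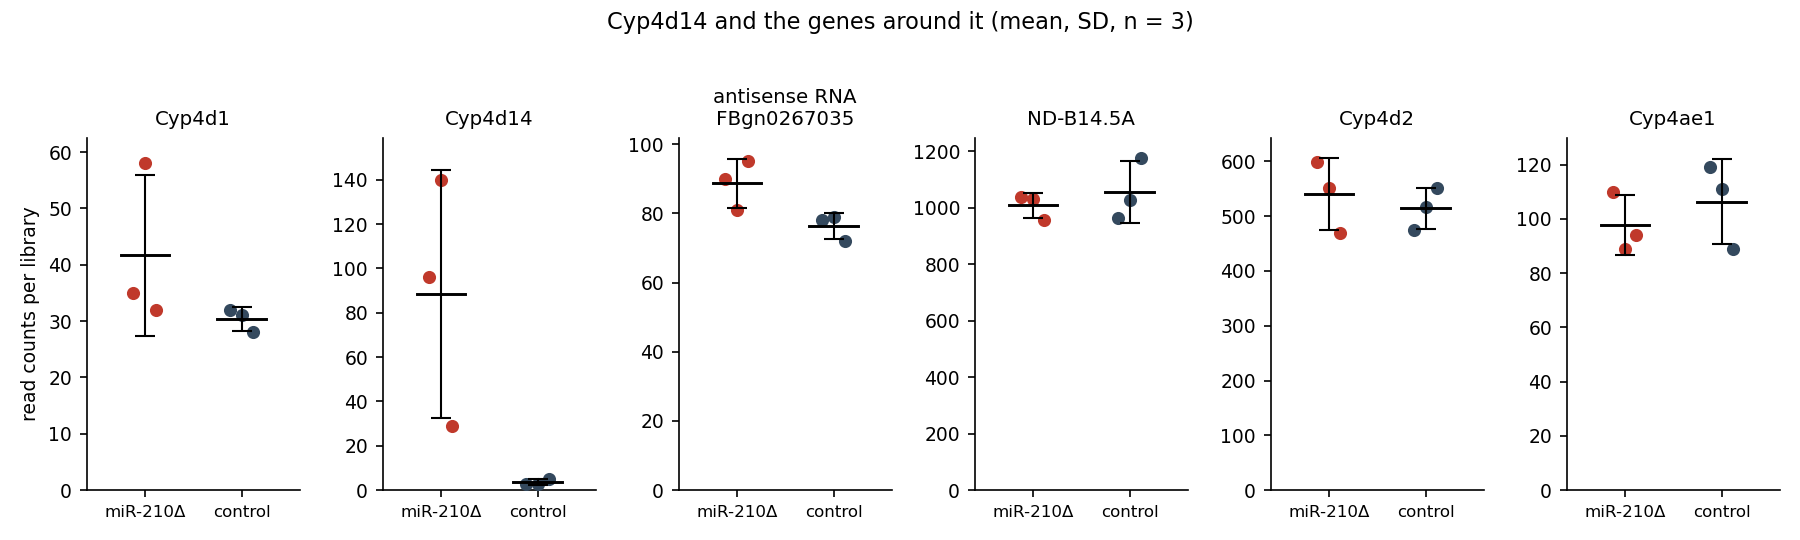
Raw counts per library of Cyp4d14 and of the genes around it on the X chromosome, 3 miR-210Δ and 3 control libraries each. Points are libraries, and the line and bar give the mean and SD. Among the P450 genes drawn, only Cyp4d14 has genotypes that do not overlap, with 29 to 140 counts in mutants and 3 to 5 in controls.

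The clearest decrease was that of Cyp6g1, a CYP3-clan enzyme whose overexpression confers resistance to DDT and neonicotinoids in wild populations. It lies at chr2R:12185667-12188431 on the plus strand. Cyp6g1 had 519, 512 and 478 normalised counts in miR-210Δ mutants, against 788, 828 and 905 in control flies. All mutant libraries were below all controls, and the mutants were close to each other. The log2 fold change was -0.74 (SE 0.0640, edgeR adjusted p = 2.72e-05), and the call was lost, of the 14 alternatives, only when the change was tested against a 1.5-fold threshold. Cyp6g1 overlaps its neighbour Cyp6g2 on the opposite strand at the gene ends, and Cyp6g2 was not called.

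Cyp6a14 (chr2R:8564187-8567202, minus strand) was the other Cyp6 gene that fell. Cyp6a14 overlaps 1360{}780 on the opposite strand over 892 of its 2959 exon bases, so that reads may not be fully separated. It had 163, 172 and 147 normalised counts in miR-210Δ mutants, against 192, 226 and 238 in control flies. The groups did not overlap. The log2 fold change was -0.44 (SE 0.108, adjusted p = 0.0243), but the call was lost without control replicate 2 (adjusted p = 0.0736) and without mutant replicate 1 (0.0786), 2 (0.0505) or 3 (0.0984). Its neighbour Cyp6a13 had 549, 593 and 585 normalised counts in mutants against 492, 506 and 535 in controls. These lay in the other direction without overlap, but did not pass the threshold (log2 fold change 0.17, adjusted p = 0.103).

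Increases were seen in 3 Cyp6 genes. Cyp6a8 (chr2R:14887171-14889010, minus strand) is inducible by caffeine and is highly expressed in several insecticide-resistant strains. It had 769, 813 and 819 normalised counts in miR-210Δ mutants, against 663, 670 and 605 in controls (log2 fold change 0.31, SE 0.0566, adjusted p = 0.00507). Cyp6w1 (chr2R:6173684-6176195, plus strand), which is raised in DDT-resistant strains, had 1760.4, 1907 and 1618 normalised counts in mutants, against 1442, 1482 and 1455 in controls (0.27, SE 0.0567, adjusted p = 0.0107). For both genes every mutant library exceeded every control library, and both calls were lost only with the 1.5-fold threshold. Cyp6d5 (chr3R:14029228-14031483, plus strand) had 4654, 4649 and 4435 normalised counts in mutants against 4147, 4229 and 4141 in controls. The groups were separate but close, and the small difference (0.13, SE 0.0362, adjusted p = 0.0394) was lost without control replicate 1 (0.0982) or 2 (0.0754), without mutant replicate 1 (0.176) or 2 (0.142), with DESeq2 (0.0507) and without the count filter (0.0604).

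Cyp6a8 lies in the largest tandem group of the family, 9 genes at chr2R:14871366-14903095, of which 8 were tested and 1 was called. Cyp6a23, the gene of highest level per kb in that group, had 2779, 2741 and 2603 normalised counts in miR-210Δ mutants against 2599, 2807 and 2517 in controls (log2 fold change 0.04, adjusted p = 0.715). Cyp6a20, in which mutants are more aggressive, had 1744, 1862 and 1892 normalised counts in miR-210Δ mutants against 1842, 1913 and 1936 in controls (-0.05, adjusted p = 0.561). Cyp6a17, known for its role in temperature preference, had 133, 148 and 149 normalised counts in mutants against 149, 164 and 147 in controls (-0.11, adjusted p = 0.603). Mutant and control libraries overlapped for these 3 neighbours. Over the genome, 46 members lay in 16 groups of P450 genes within 20 kb of each other, and 6 of these groups held a called member. None held more than 1. Of all tested members 13.6% were called, and of all genes tested 10.1%, so few groups could hold more. Whether calls were spread over the groups unevenly was not tested.

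Cyp28d1 (chr2L:5210460-5212445, plus strand), which contributes to nicotine resistance, was among the most abundant members. It had 3900, 4127 and 3821 normalised counts in miR-210Δ mutants, against 3460, 3654 and 3045 in control flies. The groups did not overlap, and control replicate 3 was lowest. The log2 fold change was 0.22 (SE 0.0613, adjusted p = 0.0450), and the call was lost without control replicate 1 (0.0742) and without mutant replicate 1 (0.123), 2 (0.184) or 3 (0.0860). Its neighbour Cyp28d2 was low and variable, at 42.6, 77.3 and 60.6 normalised counts in mutants against 40.3, 62.2 and 25.3 in controls (0.48, adjusted p = 0.415), with overlapping libraries.

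Of the CYP2 clan, Cyp305a1 (chr3L:19810403-19813339, minus strand) was higher. It had 440, 422 and 356 normalised counts in miR-210Δ mutants, against 303.9, 266 and 338 in control flies. The lowest mutant library was only slightly above the highest control library, which was control replicate 3. The log2 fold change was 0.43 (SE 0.104, adjusted p = 0.0232). The call was lost without control replicate 2 (0.0683) and without mutant replicate 1 (0.115) or 2 (0.102), and the adjusted p was 0.00153 without control replicate 3.

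Cyp4ac1 (chr2L:5264001-5265899, plus strand) was the only called member of the CYP4 clan beside Cyp4d14. It had 26.0, 19.1 and 22.3 normalised counts in miR-210Δ mutants, against 54.8, 38.1 and 41.1 in control flies. The groups did not overlap, and the mutants were at about the same level. The log2 fold change was -0.98 (SE 0.243, adjusted p = 0.0265), lost without control replicate 1 (0.101) and without mutant replicate 1 (0.0624), 2 (0.119) or 3 (0.0902). Its tandem copy Cyp4ac3 had 267, 240 and 247 normalised counts in mutants against 284, 292 and 244 in controls (-0.12, adjusted p = 0.467), and these overlapped. Just outside the threshold, Cyp6d2 had 65.8, 79.3 and 59.5 normalised counts in mutants against 43.4, 48.3 and 41.1 in controls (0.62, SE 0.183, adjusted p = 0.0573). Its libraries did not overlap, and the call was gained when libraries were scaled by their totals only. Cyp6d2 overlaps nsr on the opposite strand over 897 of its 1759 exon bases, so that reads may not be fully separated.

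**Figure D3:**
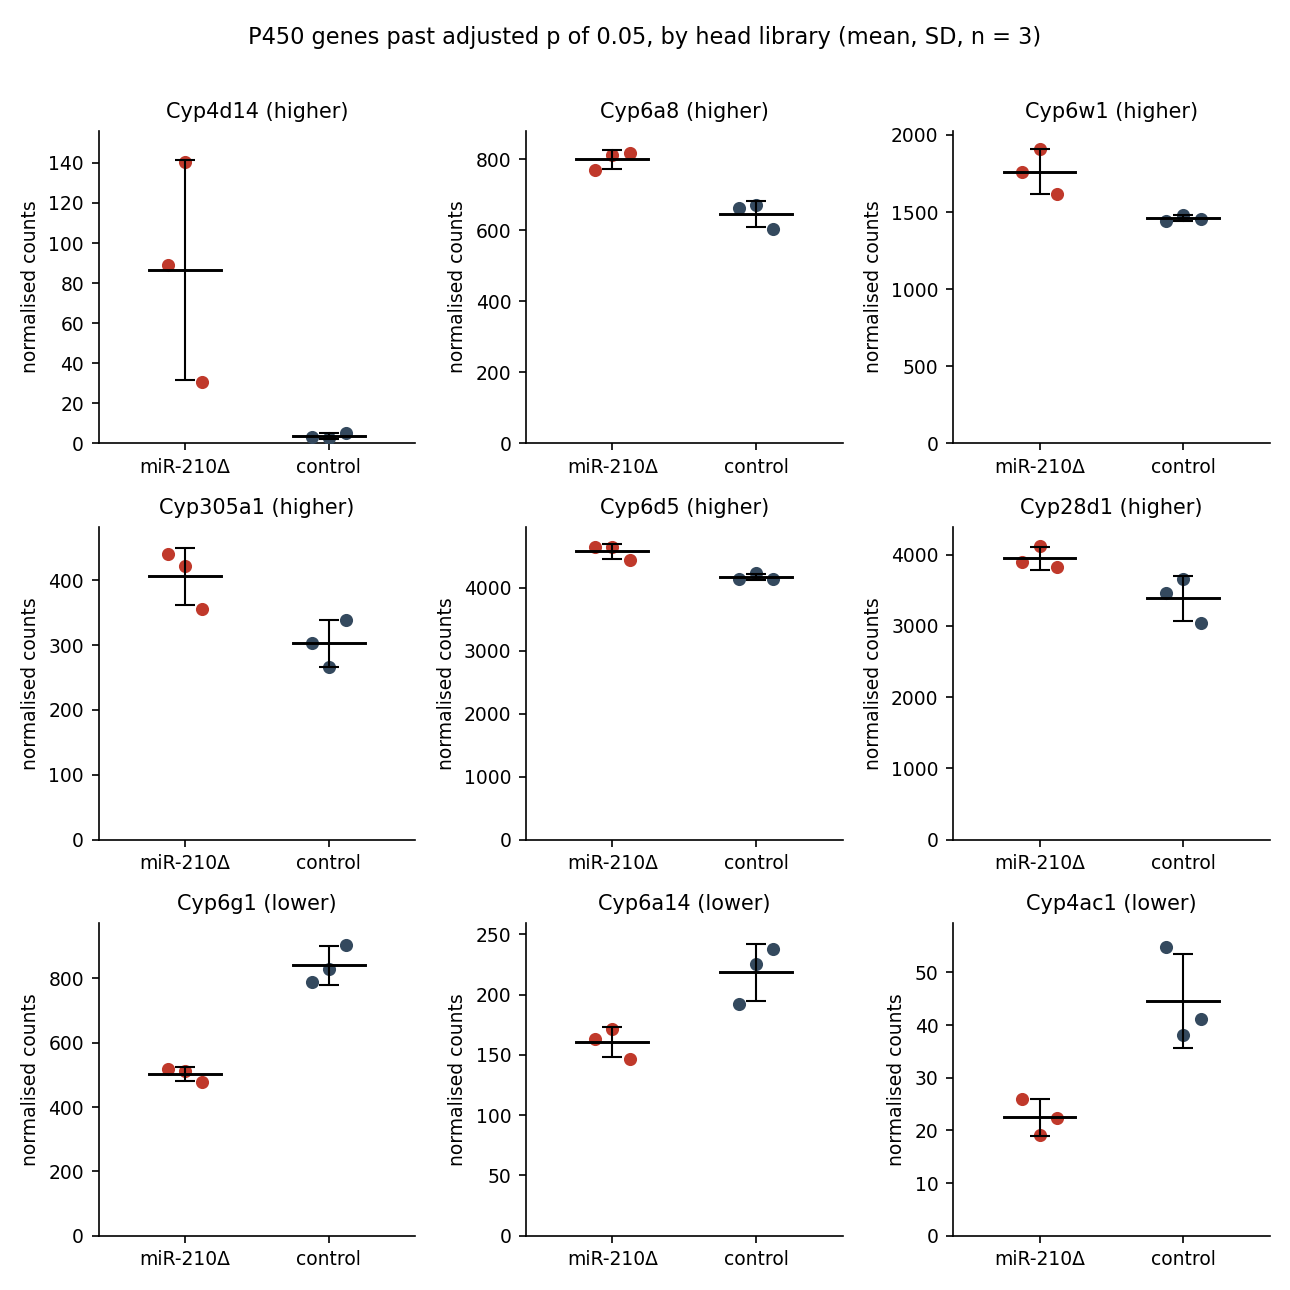
Normalised counts of the 9 called P450 genes in each head library, 3 miR-210Δ mutants and 3 controls, with mean and SD. All axes start at 0. The genotypes are separate in each panel. The gap is widest for Cyp4d14, with 30.8 to 141 in mutants and 2.79 to 5.27 in controls, and narrow for Cyp6d5, with 4435 to 4654 in mutants and 4141 to 4229 in controls.

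The 57 tested members that were not called had log2 fold changes of -0.47 (Cyp4d21) to 0.62 (Cyp6d2). Several of them had libraries that did not overlap. Cyp4d8 had 347, 338 and 363 normalised counts in miR-210Δ mutants against 477, 395 and 376 in controls (-0.25, SE 0.0901, adjusted p = 0.116), and it passed the threshold without control replicate 3. Cyp4p3 had 245, 254 and 268 in mutants against 298, 291 and 273 in controls (-0.17, adjusted p = 0.212). Cyp4p3 and Cyp4d8 were thus lower in every mutant library than in any control. In the other direction, Cyp4c3 had 629, 671 and 635 in mutants against 581, 596 and 624 in controls (0.10, adjusted p = 0.30). Cyp6v1 had 672, 618 and 592 in mutants against 561, 539 and 592 in controls (0.16, adjusted p = 0.170). Its lowest mutant and highest control libraries were nearly equal. Cyp9b2, a gene whose libraries overlapped, had 1677, 1707 and 1545 in mutants against 1477, 1547 and 1492 in controls (0.13, adjusted p = 0.136). Scaling by library totals alone added Cyp6v1 and Cyp9b2, with Cyp6a13 and Cyp6d2, to the called members. By chromosome, 1 of 10 tested members on 2L was higher and 1 lower, 2 of 28 on 2R were higher and 2 lower, and 1 each of 5 on 3L, 11 on 3R and 12 on X was higher. Of all genes tested, 3.97% were called higher and 6.12% lower.

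No member of the mitochondrial clan was called, and the genes nearest to the threshold were of the Cyp12 family. Cyp12a4, whose overexpression confers resistance to lufenuron, had 2285, 2233 and 2109 normalised counts in miR-210Δ mutants against 2417, 2336 and 2587 in controls (log2 fold change -0.15, SE 0.0486, adjusted p = 0.0895). Cyp12c1 had 369.9, 391 and 374 in mutants against 460.0, 462 and 391.8 in controls (-0.21, adjusted p = 0.117). Cyp12e1 had 171, 184 and 172 in mutants against 189, 217 and 236 in controls (-0.28, adjusted p = 0.114). In all 3 genes the mutants lay below the controls without overlap. Cyp12c1 passed the threshold without control replicate 3, and Cyp12e1 without control replicate 1. The insecticide resistance gene Cyp12d1-p had 158, 165 and 158 normalised counts in mutants against 125, 151 and 160.0 in controls (0.14, adjusted p = 0.525), with overlap. Its tandem copy Cyp12d1-d, 99.8% identical in coding sequence and sharing 75.0% of its 150-base windows, had 0 counts in every library. Reads that mapped to several places were removed upstream, so the values of this pair cover only part of their reads. Cyp301a1, which acts in cuticle formation, had 55.6, 48.2 and 30.8 normalised counts in mutants against 43.4, 44.6 and 50.6 in controls (-0.03, adjusted p = 0.958).

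The members with known roles in hormone metabolism were low in heads and none was called. Cyp18a1, the enzyme that inactivates ecdysteroids by 26-hydroxylation, had 75.1, 88.3 and 76.5 normalised counts in miR-210Δ mutants against 83.7, 124 and 100.1 in control flies. Mutant replicate 2 lay above the lowest control, and the groups overlapped (log2 fold change -0.37, SE 0.167, adjusted p = 0.218). Cyp6g2, which is expressed in the corpora allata, the gland that makes juvenile hormone, had 50.1, 47.2 and 41.5 in mutants against 40.3, 43.6 and 23.2 in controls (0.37, SE 0.247, adjusted p = 0.430). Cyp6t3, used in the prothoracic gland for ecdysone synthesis, had 0, 0 and 2 raw counts in mutants against 6, 0 and 1 in controls and was not tested. The prothoracic gland is a larval tissue that degenerates during metamorphosis.

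Among the partners of these enzymes, 10 genes of ecdysteroid metabolism were tested and none passed the threshold (10.1% of all genes did), with a median log2 fold change of -0.0048. The C2-hydroxylase sad had 21.3, 9.03 and 18.1 normalised counts in miR-210Δ mutants against 33.1, 28.8 and 25.3 in controls (-0.84, SE 0.318, adjusted p = 0.138). The 20-hydroxylase shd, which makes the active hormone, had 67.7, 80.3 and 87.2 in mutants against 102, 78.9 and 96.9 in controls (-0.24, adjusted p = 0.411). dib and spo had 0 counts throughout. Of 12 tested genes of juvenile hormone synthesis, breakdown and response, none was higher and 1 was lower (8.33% called, against 10.1% of all genes). This was Kr-h1, a transcription factor induced by juvenile hormone, with 1060.5, 999 and 910.1 normalised counts in mutants against 1578, 1425 and 1466 in controls. The genotypes were far apart for Kr-h1 (-0.59, SE 0.0617, adjusted p = 1.08e-04). The epoxide hydrolase gene Jheh3 was next, with 221, 315.2 and 211 in mutants against 328, 365 and 336 in controls (-0.46, adjusted p = 0.0519).

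In hydrocarbon metabolism, Cyp4g15 is the brain-expressed relative of the oenocyte decarbonylase that forms cuticular hydrocarbons. It had 2160, 2191 and 2150 normalised counts in miR-210Δ mutants against 2264, 2293 and 2102 in controls, which overlapped (log2 fold change -0.04, SE 0.0427, adjusted p = 0.683). The sign turned to 0.02 when libraries were scaled by totals only. In a list drawn up for hydrocarbon synthesis, with 13 genes tested, 4 were higher and none lower (30.8% called, against 10.1% of all genes). The list was broader than the enzymes of that pathway, and 1 of the 4, app, is a palmitoyltransferase. The share is therefore one of the list only. Desat1, a delta-9 fatty acid desaturase, had 6999, 7399 and 7699 normalised counts in mutants against 5916, 5402 and 5352 in controls (0.41, SE 0.0504, adjusted p = 3.54e-04). The fatty acid synthase FASN1 (0.19, adjusted p = 0.0107), the elongase bond (0.19, adjusted p = 0.0383) and the palmitoyltransferase app (0.16, adjusted p = 0.0186) differed by less. Without mutant replicate 1 the count of higher genes was 1, and without mutant replicate 2 it was 2. Markers of cells that make these lipids were also measured. Of 13 fat body markers 4 were higher (30.8%, against 10.1% of all genes), with a summed level of 7021 to 7505 CPM in mutant libraries against 6566 to 7149 CPM in control libraries. Of 9 listed oenocyte markers 6 were counted, and these summed to 436 to 446 CPM in mutants against 385 to 410 CPM in controls. Most of that sum was bond, with a mean of 3916 normalised counts in mutants against 3430 in controls, and app, with 3626 against 3250. The marker svp was nearly equal, at 793 against 789. The oenocyte markers did not all lie in that direction. bond and app, on the oenocyte list, and FASN1, on the fat body list, are genes named above. FASN3 had 100.1, 71.3 and 105 normalised counts in mutants against 131, 88.2 and 243 in controls (-0.73, adjusted p = 0.192), and FASN2 differed by -0.14 (adjusted p = 0.621). Control replicate 3 was far the highest for FASN3, and no value without that library is given. eloF had 10 raw counts in control replicate 3 and 0 in the other 5 libraries. No other marker of either list was at 0 in all 3 libraries of a genotype. Their part in the P450 results was not tested.

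Of 8 names listed as redox partners of the family, 4 genes were found and tested, and none passed the threshold. Cyt-b5 and dare, which were on the list, were not found and not examined. Cpr, the single cytochrome P450 reductase, had 9758, 10171 and 9970 normalised counts in miR-210Δ mutants against 9696, 10195 and 9640 in controls (log2 fold change 0.02, SE 0.0395, adjusted p = 0.843), with overlapping libraries. The ferredoxins Fdx1 (-0.02, adjusted p = 0.965) and Fdx2 (0.01, adjusted p = 0.963) were not called, nor was any of the 4 tested redox partners. Of 12 tested regulators of xenobiotic and hormone response, 1 was higher (8.33% called, against 10.1% of all genes). Hr38, a nuclear receptor of the NR4A type, had 991, 918 and 1056 normalised counts in mutants against 498, 551 and 676 in controls (0.78, SE 0.0961, adjusted p = 3.3e-04).

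The P450 genes spanned a wide range of levels in the head. Per kilobase of exon, 58 of 78 members reached 1 CPM per kb, 30 reached 10, and 20 were below 1. Among these members, which do not hold Cyp4g1, Cyp4p1 was highest at 156 CPM per kb (mean of the 6 libraries). Next were Cyp313a1 at 138, Cyp6d5 at 137, Cyp28d1 at 117, Cyp9f2 at 92.9 and Cyp6a23 at 78.2. Neighbours in this order overlapped in their ranges over libraries except Cyp28d1 over Cyp9f2 and Cyp9f2 over Cyp6a23. Called members were found at high and low levels. Of the 30 at 10 CPM per kb or more, 6 were called, with a median standard error of 0.0573 on the log2 scale. Of the 36 tested members below, 3 were called, with a median standard error of 0.172. Over all genes tested, at any level, 10.1% were called.

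Of the 6 most abundant members, 4 were not called. Cyp4p1 had 5109, 4999 and 4872 normalised counts in miR-210Δ mutants against 5059, 5290 and 5195 in controls (log2 fold change -0.05, SE 0.0370, adjusted p = 0.445). Cyp9f2 had 3201, 3286 and 3153 in mutants against 3106, 3138 and 3136 in controls. Its genotypes did not overlap, by a small margin (0.04, adjusted p = 0.567). Cyp313a1 had 4246, 4204 and 4205 in mutants against 3975, 3901 and 5536 in controls. Control replicate 3 was far above every other library for Cyp313a1, and the log2 fold change of -0.08 (SE 0.108, adjusted p = 0.705) turned to 0.10 (SE 0.0372, adjusted p = 0.108) without it.

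**Figure D4:**
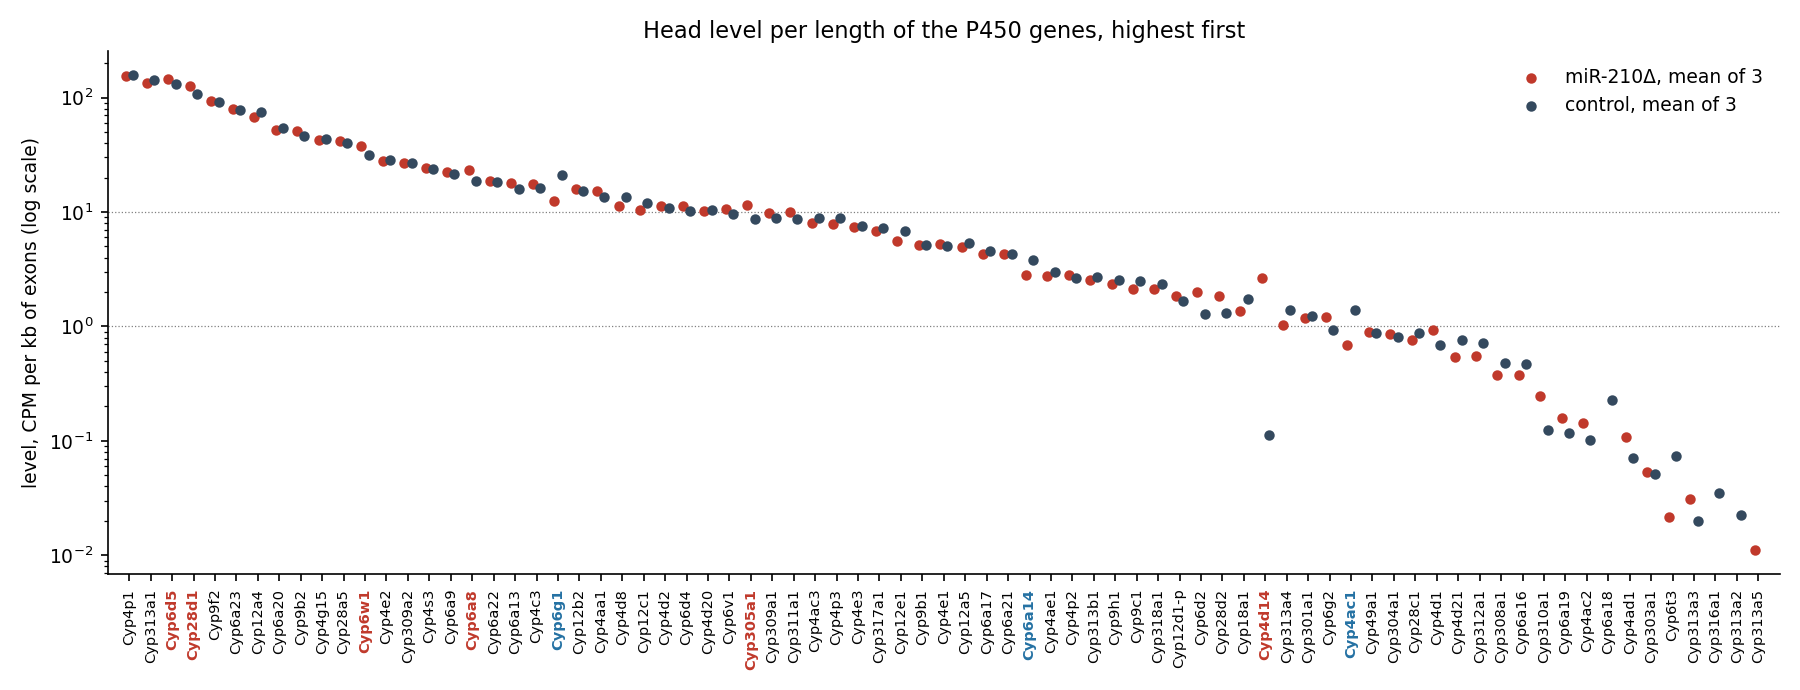
Level of the P450 genes in heads, in CPM per kb of exon on a log axis, from highest to lowest, as means of 3 miR-210Δ and 3 control libraries. Called members have bold names, red for higher and blue for lower. Levels run from 156 for Cyp4p1 down to below 1 for 20 members, and Cyp12d1-d, with 0 counts, is not drawn.

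Together the 78 genes took 2689, 2721 and 2583 CPM of the unscaled library totals in miR-210Δ libraries and 2511, 2506 and 2518 CPM in control libraries. The mean was 2664 ± 72.6 in mutants and 2512 ± 5.94 in controls (SD, n = 3 each), and the libraries did not overlap. The difference of 153 CPM was 44.7 CPM, with overlap, when the libraries were scaled by TMM (2610 ± 57.8 in mutants and 2566 ± 40.7 in controls). Without Cyp4p1 the difference in library shares was 152.

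Of the 12 members too low to test, 11 had at most 24 counts summed over the 3 libraries of either genotype. Cyp310a1 had 7, 10 and 7 counts in miR-210Δ mutants against 2, 5 and 5 in controls, a ratio of 1.99 with an exact interval of 0.955 to 4.36. The exception was Cyp6a18, with 0 counts in all 3 mutant libraries against 3, 1 and 49 in controls. Against a set floor of 3 counts for the mutant libraries, controls were 17.8-fold higher, which is not a lower bound. The exact interval of the ratio of mutant to control ran up to 0.0716 and covers counting error only. Nearly all control counts came from control replicate 3, so no fold is given for the genotypes. That library also stood out for midgut markers, with a summed 32.8 CPM against 5.43 to 5.74 CPM in the other controls and 3.83 to 4.35 CPM in mutants, although 6 of the 11 midgut markers, among them betaTry and epsilonTry, were at 0 throughout. Control replicates 1 and 2 alone held 4 counts of Cyp6a18 together, against 0 in the mutants.

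Of the closely related pairs, only 4 members shared any stretch of 150 coding bases with another, namely the Cyp12d1 pair and Cyp6a9 with Cyp6a21 (3.88% of windows). No called member did. Cyp6a9 had 858, 852 and 855 normalised counts in miR-210Δ mutants against 797, 827 and 831 in controls (log2 fold change 0.06, adjusted p = 0.462). The median member was 62.4% identical to its nearest relative.

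Because the mutants lack miR-210, the 3′ UTRs of the members were searched for the complement of its seed. The mature miR-210-3p lies at chrX:18128270-18128292 on the plus strand and is printed with its seed, bases 2 to 8, in capitals.
miR-210-3p: cUUGUGCGugugacagcggcuau
The first base of this annotated form shifts the seed by 1 relative to a form that starts at the next base, so that matches to bases 2 to 8, 3 to 9 and 5 to 11 were counted, the last of these being the seed that the study names, UGCGUGU. The match CGCACAA was searched on the transcript strand. It was present in the annotated 3′ UTR of 3 of 77 members (3.90%), Cyp12d1-p, Cyp312a1 and Cyp6a18, against 398 of 13534 genes (2.94%). The offset match ACGCACA, to bases 3 to 9, was present in 4 members (5.19%), the same genes and Cyp18a1, against 536 of 13534 genes (3.96%). The match ACACGCA, to bases 5 to 11, was present in 0 of 77 members and in 613 of 13534 genes (4.53%). The letters of these matches overlap, so that a site can hold more than one. The median 3′ UTR was 151 bases in the members and 227 bases over all genes. None of the 9 called members held any of these matches. The sites of 3 of these genes are shown with the match in capitals, at chr3L:18129813-18129819 (Cyp312a1), chr3R:27482338-27482344 (Cyp6a18) and chrX:18688887-18688893 (Cyp18a1).
Cyp312a1: tttcattgcgaCGCACAAcatttccgtttt
Cyp6a18: cacaggcggcaCGCACAAttaatttgcaag
Cyp18a1: agctgtgaccaACGCACAgaggactgcaac
Cyp312a1 had 38.0, 30.1 and 40.4 normalised counts in miR-210Δ mutants against 26.9, 57.6 and 57.9 in controls, with overlap (log2 fold change -0.40, adjusted p = 0.472), and Cyp18a1 and Cyp6a18 are described above. A match of letters is not a measured site.

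The products of P450 enzymes are commonly conjugated by glutathione S-transferases (Gst) and UDP-glycosyltransferases (Ugt), and both gene families were examined. Of 10 tested Ugt genes, 3 were higher and 3 were lower (60.0%), and of 30 tested Gst genes, 3 were higher and 1 was lower (13.3%), where 10.1% of all genes were called. Ugt35b had 2567, 2766 and 2254 normalised counts in miR-210Δ mutants against 1408, 1175 and 1070.1 in controls (log2 fold change 1.06, SE 0.0955, adjusted p = 3.75e-05). Ugt86Dd, which like Cyp28d1 contributes to nicotine resistance, had 664, 665 and 618 in mutants against 514, 464 and 382 in controls (0.52, SE 0.0912, adjusted p = 0.00379). In the other direction, Ugt58Fa had 309.6, 347 and 304.1 in mutants against 479, 514 and 476 in controls (-0.61, adjusted p = 2.47e-04), and Ugt86De fell by 0.70 on the log2 scale (adjusted p = 0.00345). GstS1 had 6012, 6037 and 6149 in mutants against 4384, 4190 and 4340 in controls (0.49, SE 0.0358, adjusted p = 6.33e-06). For each of these genes with values given the genotypes did not overlap. The other called Gst genes were GstE3 (0.23, adjusted p = 0.0218), GstD2 (0.54, adjusted p = 0.0356) and GstT1 (-0.25, adjusted p = 0.0233). Without control replicate 1, mutant replicate 2 or mutant replicate 3, 1 Gst gene was higher. Without mutant replicate 1 or 3 none was lower, and without control replicate 3, 3 were lower.

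**Figure D5:**
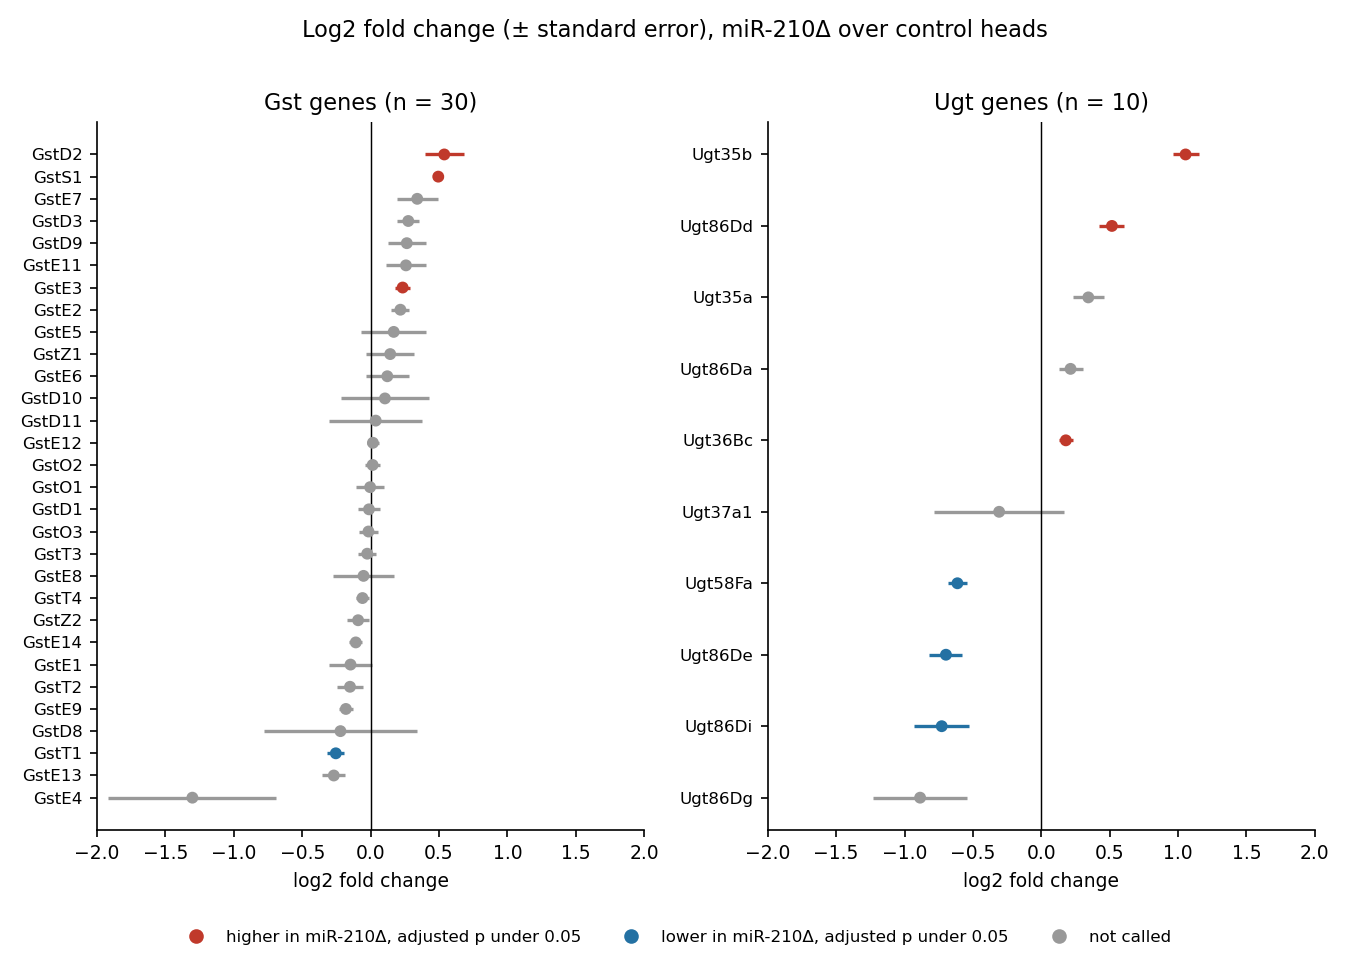
Log2 fold change of the tested Gst and Ugt genes, miR-210Δ mutants over control heads. Points are edgeR estimates from 3 libraries per genotype and bars are ± 1 standard error. Among Ugt genes, Ugt35b is highest at 1.06 and Ugt86Di lowest of the called genes at -0.73, while GstS1 is at 0.49.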

How the data were processed

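Heads of miR-210Δ and wDah females were profiled by poly(A)-selected, stranded RNA-seq. The authors deposited whole-number read counts per gene. Per the labels and methods, reads were trimmed with Trim Galore 0.3.7 and mapped to Dm6 with TopHat2, and SAMtools removed reads that mapped to several places. Which counter, annotation and strand option produced the table is not given in the sources used here. A second deposited table holds the authors' DESeq2 fold changes and p-values, of which only the gene symbols were used, and the 12 small RNA libraries were not used.

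Counts were tested with edgeR 4.0.16 (R 4.3.3) after filterByExpr and TMM scaling, genotype being the only term (biological coefficient of variation 5.54%), with Benjamini-Hochberg adjustment over 9470 genes and a threshold of 0.05. DESeq2 1.42.0 and limma 3.58.1 (voom) were alternatives, as were other scalings, filters, a replicate block, a 1.5-fold threshold and leaving out each library. Normalised counts are TMM-scaled counts, and levels are TMM-scaled CPM per kb of merged exons. The model was tested on simulated data. Of the table's genes, 15186 matched the annotation by identifier, 125 by symbol and 95 not, and of the 79 members 78 and 1. Sequences came from the RefSeq Release 6 genome, with gene models of BDGP6.54, read with Python 3.11.15 and Biopython 1.88. The Cyp members and the lists were chosen with earlier results of these data known. Genes named were the called members, those in hormone, hydrocarbon and redox lists, the 6 highest levels, Cyp4d14, members at 0 in 1 genotype and at 10 counts or more in the other, and up to 4 called genes per list. Other genes were chosen after their values were seen.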

Additional observations from a re-analysis of the deposited data

How the results depend on the processing

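Over all genes, 956 were called, 39.3% of them higher in miR-210Δ mutants. Scaling by library totals alone called 1200 and made 66.1% higher, with a shift of the median by 0.06 on the log2 scale. A 1.5-fold threshold left 120, and leaving out 1 library gave 594 to 1278. For the P450 genes, library totals gave 10 higher members and a median log2 fold change of 0.063, and the 1.5-fold threshold gave 1 higher and 0 lower. Leaving out 1 library gave 3 to 6 higher, 1 to 5 lower and a median of -0.025 to 0.023. Cyp4g15 (0.024) and Cyp4p1 (0.0066) changed sign under library totals, and Cyp313a1 and Cyp6a23 did so without control replicate 3 (Cyp313a1 ranged over -0.17 to 0.10 and Cyp6a23 over -0.0011 to 0.088 when 1 library was left out); none was called under either setting. The P450 share of counts differed by 44.7 CPM with TMM-scaled sizes, an alternative chosen after seeing the data, and by 153 without.

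In the lists, library totals gave 1 juvenile hormone gene higher, 5 Gst genes higher and 0 lower, and 5 Ugt genes higher. DESeq2, voom, no count filter and the replicate block each gave 2 juvenile hormone genes lower, and DESeq2 0 Gst genes lower. The block gave 2 hydrocarbon genes higher and 1 lower. The 1.5-fold threshold left 1 Ugt gene higher and 0 in every other list and direction. Leaving out 1 library gave 0 to 1 ecdysteroid gene lower, 0 to 1 juvenile hormone gene higher and 1 to 2 lower, 1 to 4 hydrocarbon genes higher and 0 to 1 lower, 1 to 4 Gst genes higher and 0 to 3 lower, and 2 to 3 Ugt genes in each direction. Levels from the longest transcript changed little. Libraries with the same number did not deviate together (correlations -0.031, 0.031 and 0.075), so the numbers do not pair them; the block called 855 genes and 8 P450 members, the one lost being Cyp6d5 (adjusted p = 0.0821). Low counts limit the precision for the 36 tested members under 10 CPM per kb, whose median standard error was 0.172 on the log2 scale.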
